A study of Ascaris suum with 9 samples.

Results

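The response of Ascaris suum larvae to biochanin A was described here across 14857 of the 17974 genes in the count table, or 82.7%. These are the genes with 10 or more counts in at least 3 of the 6 libraries compared, 3 from larvae given 100 µM biochanin A and 3 from larvae given the control solvent, each for 3 hours. Both groups are whole organisms. The labels give neither the larval stage, nor the solvent, nor how many larvae went into a library. A further 3 libraries came from larvae given red clover extract at 200 µg/mL; they entered the model for the scaling and the spread between libraries. Of the genes left out, 843 had no count in the 6 libraries and 2274 had too few. At the limit, the 120 genes whose third-highest count was 10 had a median of 10.7 counts per library in control and 8.5 with biochanin A, and the 66 genes just outside it, at 9, had 8.7 and 9.2. Only 38 genes passed solely through the biochanin A libraries and 37 solely through the control libraries; these had to differ, and they make up 0.256% and 0.249% of the genes described.

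Ascaris suum is the large intestinal roundworm of pigs, and its larvae migrate through host tissues before the adults settle in the small intestine. Biochanin A is an isoflavone with a methoxy group that red clover makes; isoflavones are plant polyphenols best known for weak binding to vertebrate oestrogen receptors. Nematodes handle foreign small molecules mainly with oxidising and conjugating enzymes and export pumps, whose transcripts often respond to exposure. Which of the genes below encode such proteins cannot be said, because the count table pairs none of its identifiers with a gene name or product. Identifiers are therefore printed for no more than 2 genes that rose and 2 that fell. Genomic positions and sequences were not analysed here.

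The 6 libraries were deep and of like size, with 45842836, 47119897 and 47142254 counts in control and 53786882, 47069744 and 44324212 with biochanin A. The genes described held 99.979% to 99.984% of the counts of each. A count was seen for 15492 to 16239 of all genes in control libraries and 15689 to 16074 with biochanin A, ranges that overlap. CPM is the count divided by the library size and multiplied by 1e6, after scaling by the trimmed mean of M values (TMM), which sets the bulk of genes level between libraries. In genes of at least 5 CPM in control, the median gene differed by 1.07-fold to 1.08-fold between biochanin A libraries, by 1.08-fold to 1.12-fold between control libraries and by 1.20-fold to 1.23-fold between a control and a biochanin A library. All 9 cross-group pairs were thus farther apart than any pair within a group.

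Biochanin A moved a large part of the larval transcriptome, in both directions and mostly by little. At an adjusted p below 0.05 by edgeR's quasi-likelihood test, 5342 genes changed, or 36% of those tested, with 2561 higher (17.2%) and 2781 lower (18.7%). Over all tested genes the median change in either direction was 1.24-fold, and the central 80% of log2 fold changes lay between -0.68 and 0.70. Changes as small as 1.10-fold were called. The called changes had a median of 1.42-fold, 75% of them stayed below 1.75-fold and 90% below 2.47-fold.

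**Figure D1:**
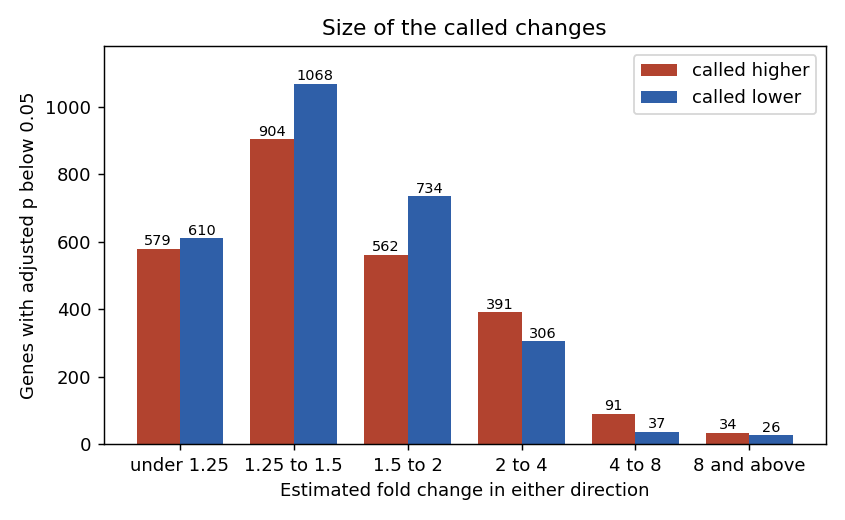
Genes called at an adjusted p below 0.05 (y axis, number of genes) by the estimated fold change in either direction (x axis), higher with biochanin A in red and lower in blue, under TMM scaling (library totals gave 1343 higher and 5188 lower in all). Lower calls outnumber higher ones below 2-fold, for example 1068 against 904 between 1.25-fold and 1.5-fold, and higher calls outnumber lower ones from 2-fold on, for example 91 against 37 between 4-fold and 8-fold. The calls from 2-fold on include 42 higher and 0 lower among genes under 0.2 CPM in control, which the count rule kept mainly if biochanin A was higher.

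Under TMM the split of called genes by direction differed with the size of the estimated change. Of the called genes with an estimated change under 1.25-fold, 579 were higher and 610 lower; from 1.5-fold to 2-fold, 562 were higher and 734 lower. Above 2-fold the order turned, with 391 higher and 306 lower up to 4-fold, 91 and 37 from 4-fold to 8-fold, and 34 and 26 beyond. The turn did not hold at every abundance. By mean control CPM, 131 were higher and 26 lower under 1 CPM, and 146 and 129 from 1 to 5 CPM. Falls led from 5 to 20 CPM (99 and 141), and rises from 20 to 100 CPM (92 and 67) and above (48 and 6). The rarest 264 genes, under 0.2 CPM, could hardly be called lower under the count rule, and 42 of them were called higher. The 885 called genes over 2-fold are 16.6% of the calls and 5.96% of the genes tested. An estimate over a limit is not a test of that limit, so the size was also tested directly with edgeR's glmTreat. A change beyond 1.5-fold passed for 703 genes (4.73%), 454 higher (3.06%) and 249 lower (1.68%). A change beyond 2-fold passed for 181 genes (1.22%), 160 higher (1.08%) and 21 lower (0.141%). With DESeq2 size factors in place of TMM these counts were 468 and 237 beyond 1.5-fold and 164 and 20 beyond 2-fold. With plain library totals they were 312 and 623 beyond 1.5-fold, which turns the order, and 102 and 63 beyond 2-fold, which does not. The glmTreat counts also include the genes under 0.2 CPM. Beyond 1.5-fold under TMM, the class under 1 CPM gave 39 higher and 2 lower. The classes above gave 75 and 26, 109 and 102, 145 and 108, and 86 and 11, from rarer to more abundant. No split by class is given here beyond 2-fold.

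The balance of rises and falls moved with the scaling. The median log2 fold change over all tested genes was -0.02 under TMM, 0 under DESeq2 size factors and -0.22 under library totals. The small lead of falls among calls, 2781 against 2561 rises, was not stable. DESeq2 size factors gave 2687 higher and 2645 lower, and the 6 libraries only 2598 and 2553. The DESeq2 test gave 2825 and 2824. Falls kept the lead with limma voom (2646 and 2767), without the filter (2583 and 2692) and with a replicate block (2568 and 2764). Library totals gave 1343 higher and 5188 lower calls, and 107 of the 5342 called genes changed sign. Of the 5342, 4124 were called again under library totals, and all 4124 had the same direction. Counts of reads cannot tell whether the total RNA per larva changed, so every rise and fall here is relative to the rest of the library.

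The 3 biochanin A libraries lay wholly above or wholly below the 3 control libraries for 6833 genes, 46% of those tested, 3267 above (22%) and 3566 below (24%). This held for 96.4% of the called genes and 17.7% of the others; the call itself favours genes whose groups are apart, so the first share is a description and no further evidence. In genes of at least 5 CPM in control, the standard deviation of log2 CPM over 3 libraries had a median of 0.119 in control and 0.093 with biochanin A, and it was the larger in control for 60.3% of these 10491 genes. The standard error of the fitted log2 fold change had a median of 0.14 over all tested genes, 0.09 among genes called higher and 0.11 among genes called lower. The labels do not say whether replicates are independent exposures, and the p-values cover no more than the variation among these libraries, which may be technical.

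The response was also read in libraries that had no part in calling the genes. For each of the 9 pairs of 1 control and 1 biochanin A library, genes were called without that pair and their change was then taken from it. Between 3640 and 4692 genes were called each time, and 92.71% to 98.02% of them moved in the same direction in the pair held out. Genes not called did so in 63.3% to 70.6%. Called rises had a median log2 fold change of 0.55 to 0.63 in the libraries that chose them and 0.44 to 0.55 in the pair held out. For called falls the medians were -0.59 to -0.54 and -0.51 to -0.43. The shares with equal direction were alike for rises (92.2% to 97.8%) and falls (93.2% to 98.2%), and the median sizes were smaller in the pairs held out. The lowest share came with control replicate 2 and biochanin A replicate 3 held out, the highest with control replicate 1 and biochanin A replicate 2. TMM scaling was computed on all libraries together, including those held out. The count rule that set which genes were described also drew on all 6 libraries.

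The response differed with control abundance. With genes grouped by their mean control CPM, called rises outnumbered called falls at both ends under TMM, and falls led in between. The lead at the low end depended on the grouping. With the class from the mean of the 6 libraries, rises were 55.8% of the calls under 1 CPM, against 83.4%. From 1 to 5 CPM they were 49.1%, against 58.4%, and at 100 CPM and above 73.4%, against 66.9%. Under library totals, with classes by control CPM, rises made up 72.7% of the calls under 1 CPM and 13.5% to 34.2% in the classes above. Of the 2018 genes under 1 CPM, 131 were higher and 26 lower, and of the 2348 genes from 1 to 5 CPM, 246 and 175. From 5 to 20 CPM, 445 of 3004 genes were higher and 593 lower, and from 20 to 100 CPM, 909 of 5248 were higher and 1577 lower. At 100 CPM and above, 830 of 2239 genes were higher and 410 lower. The share of genes called climbed through these 5 classes, at 7.78%, 17.9%, 34.6%, 47.4% and 55.4%, against 36% over all genes.

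**Figure D2:**
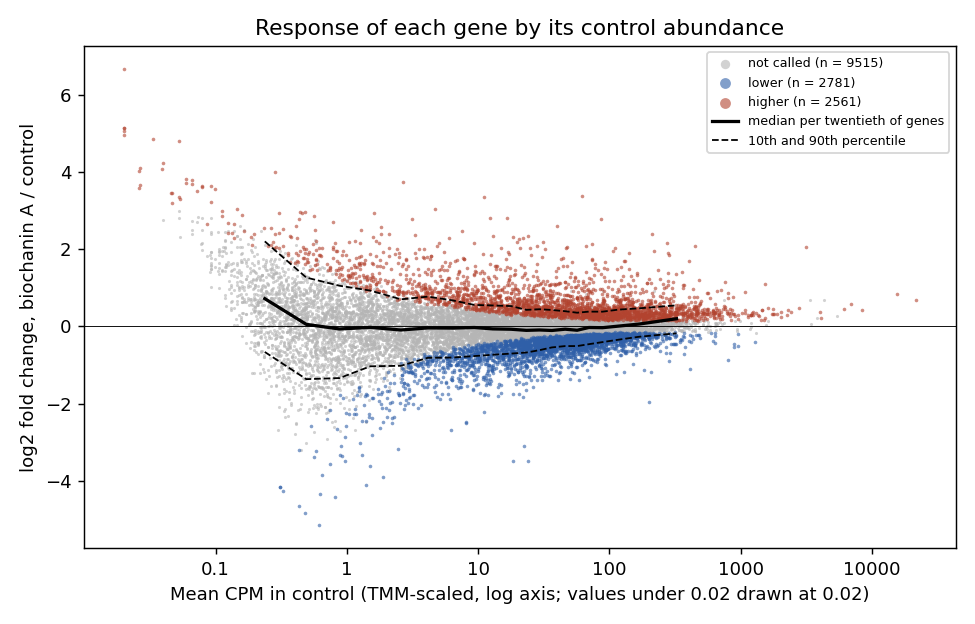
Fitted log2 fold change of each tested gene (y axis, biochanin A over control) against its mean control CPM (x axis, log scale), coloured by call; the solid line is the median and the dashed lines the 10th and 90th percentiles in 20 bins of equal gene number. The spread narrows from left to right, and the median lies at -0.11 in the bin around 36.4 CPM and at 0.20 in the most abundant bin, around 324 CPM.

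Precision climbed with abundance while the estimated changes, which carry less error there, shrank. How much of that shrinking is error was not tested. The median standard error of the log2 fold change fell from 0.84 under 1 CPM to 0.36, 0.18, 0.10 and 0.06 in the classes above. The smallest fold called was 2.29 under 1 CPM, 1.49 from 1 to 5 CPM, 1.23 from 5 to 20 CPM, 1.12 from 20 to 100 CPM and 1.10 at 100 CPM and above. The median called change was accordingly 4.96-fold, 2.30-fold, 1.67-fold, 1.35-fold and 1.26-fold. Low abundance thus limits what could be called, and the share of calls per class does not measure how many genes responded. The glmTreat test beyond 1.5-fold, which demands a set size, passed 2.03% of genes under 1 CPM, 4.30% from 1 to 5 CPM, 7.02% from 5 to 20 CPM, 4.82% from 20 to 100 CPM and 4.33% at 100 CPM and above. Low precision limits this test too, so the low share under 1 CPM does not show that fewer genes changed there. The split of passing genes was 39 higher and 2 lower in the lowest class, 109 and 102 from 5 to 20 CPM, and 86 and 11 in the highest. The lowest class includes the 264 genes under 0.2 CPM, which could hardly be called lower under the count rule. Its split was not taken without them and is no measure of direction.

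Each biochanin A library showed the same pattern by class. Among genes from 20 to 100 CPM, the median log2 difference from the control mean was -0.070, -0.072 and -0.072 in biochanin A replicates 1, 2 and 3. Each control library, set against the other 2, stood at 0, -0.017 and 0.021, so no control library reached the biochanin A values. At 100 CPM and above the biochanin A libraries stood at 0.084, 0.080 and 0.088 and the control libraries at -0.028, 0.037 and -0.013, again without overlap. Under 1 CPM the biochanin A libraries stood at 0.403, 0.386 and 0.341, and the control libraries spread from -0.152 to 0.230. That class includes 264 genes under 0.2 CPM, which the count rule kept mainly if biochanin A was higher, so its offset is partly built in. From 0.2 to 1 CPM the median fitted log2 fold change was 0.11, against 0.25 for the whole class. From 1 to 5 CPM the groups overlapped, with 0.016, -0.010 and -0.002 against 0.055, 0.032 and -0.041.

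**Figure D3:**
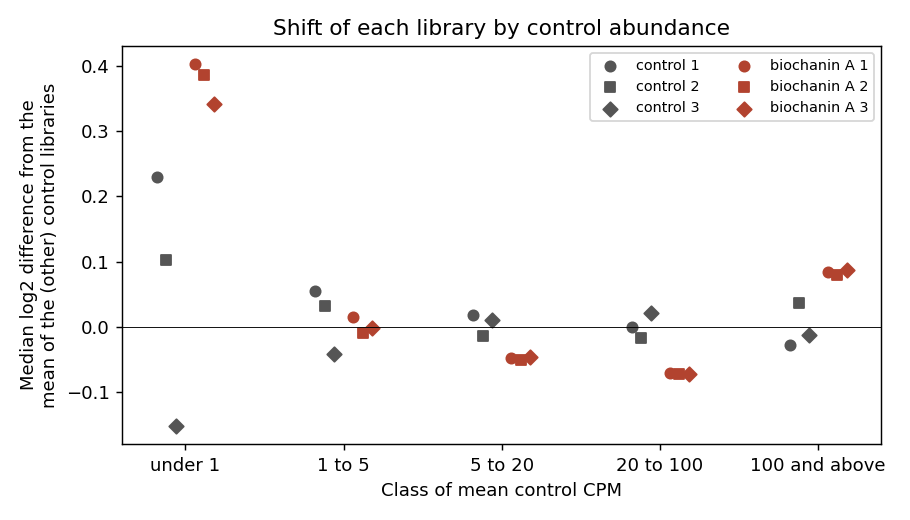
Median log2 difference of each library (y axis) from the mean of the 3 control libraries, or for a control library from the mean of the other 2, over the genes of each class of mean control CPM (x axis). Under TMM scaling, biochanin A libraries (red) lie below all control libraries (grey) from 5 to 100 CPM and above all of them under 1 CPM and at 100 CPM and above. The class under 1 CPM includes 264 genes under 0.2 CPM that the count rule kept mainly if biochanin A was higher.

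The same control libraries entered both the class and the fold change, which matters most at low counts. When the class was taken from 1 control library and the fold change from the others, the median log2 fold change under 1 CPM was 0.13 to 0.19, against 0.25. The rule of 10 counts in 3 libraries also acts at this end: a gene under 0.2 CPM in control has about that many counts per control library, so it was kept mainly if the biochanin A libraries were higher, and could hardly be called lower. These 264 genes, of which 42 were called higher, therefore say nothing on direction. Without them, 89 genes from 0.2 to 1 CPM were higher and 26 lower, with a median log2 fold change of 0.11. Under library totals the split of the same genes was 70 and 39, with a median of -0.09. When the class came from a control library left out of the fold change, 82 to 85 were higher and 27 to 33 lower. The median was then 0.09 to 0.16. That grouping put 410 to 625 genes under 0.2 CPM, not the same 264, so some of the 264 may remain in the class from 0.2 to 1 CPM. The abundant classes moved less. At 100 CPM and above the median was 0.08 to 0.11, against 0.09, and from 20 to 100 CPM it was -0.07 to -0.06, against -0.07.

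A change of scaling adds nearly the same amount to every log2 fold change, so it can move the sign within a class but, by construction, hardly the step between classes. The median log2 fold change at 100 CPM and above exceeded that of 5 to 20 CPM by 0.14 under TMM, and that of genes under 1 CPM exceeded it by 0.31. Without 1 library the first difference was 0.12 to 0.16 and the second 0.27 to 0.36. With the class from a control library left out of the fold change, the first was 0.12 to 0.17 and the second 0.17 to 0.25, and the second still includes the genes under 0.2 CPM. Under library totals the class medians were 0.05, -0.25, -0.26, -0.28 and -0.12 from lowest to highest, so the median of genes of 100 CPM and above was below 0 there and still above that of the middle classes. Higher calls then made up 27.5% of the calls in that class, against 66.9% under TMM.

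The lead of abundant transcripts steepened towards the top. From 100 to 300 CPM, 570 genes were higher and 370 lower, with a median log2 fold change of 0.05. From 300 to 1000 CPM, 219 of 372 genes were higher and 39 lower, with a median of 0.23. Of the 53 genes at 1000 CPM or more in control, 41 were higher and 1 lower, with a median of 0.31. Under library totals the split of the latter was 21 higher and 5 lower, with a median of 0.11, so the direction at the very top held. From 300 to 1000 CPM it was 95 higher and 89 lower, with a median of 0.02, and from 100 to 300 CPM it turned to 246 higher and 861 lower. With abundance taken from a control library left out of the fold change, 36 to 45 genes of 1000 CPM or more were higher and 1 to 3 lower.

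The ranking of the most abundant transcripts stayed largely in place. Of the 100 most abundant genes in control, which all had 675 CPM or more, 85 were also among the 100 most abundant with biochanin A. Of these 100, 74 were higher and 6 lower, with log2 fold changes from -0.88 to 2.06; 3 rose by an estimated 2-fold or more, and none fell by that much. Under library totals 35 were higher and 14 lower. Called folds over 2-fold were found mainly in rarer transcripts, in part by necessity. Under 1 CPM no change under 2.29-fold was called, so every call there is over 2-fold. Of the 516 called rises over 2-fold, 131 were among the 2018 genes under 1 CPM and 146 among the 2348 from 1 to 5 CPM. A further 99 were among 3004 genes from 5 to 20 CPM, 92 among 5248 from 20 to 100 CPM and 48 among 2239 at 100 CPM and above. By glmTreat beyond 1.5-fold the share passing was lowest under 1 CPM (2.03%) and highest from 5 to 20 CPM (7.02%). That test is limited by precision too, with median standard errors of 0.84 and 0.18 in these 2 classes. The 369 called falls over 2-fold numbered 26, 129, 141, 67 and 6 in these 5 classes, from lowest to highest. No gene had 10 or more counts in each control library and 0 in all biochanin A libraries. The opposite was seen for 1 gene, with 10 to 14 counts per biochanin A library, at least 3.84-fold higher against a floor of 3 counts per control library.

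The counts shifted towards fewer transcripts with biochanin A. As shares of the unscaled library total, genes of 100 CPM and above held 66.8%, 68.2% and 66.9% of the counts in control replicates 1, 2 and 3, and 71.1%, 71% and 71.4% with biochanin A. Genes from 20 to 100 CPM held 28.6%, 27.5% and 28.7% in control and 24.8%, 24.9% and 24.6% with biochanin A. In both classes all biochanin A libraries lay on the same side of all control libraries. The 10 most abundant genes of each library held 8.53% to 8.81% of its counts in control and 12% to 12.5% with biochanin A. It took 963 to 1054 genes to make up 50% of the counts in control and 712 to 745 with biochanin A. Each of these 4 comparisons had an exact permutation p of 0.1 (two-sided), the smallest that 3 libraries against 3 allow.

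Gains and losses of counts were spread over genes very differently. Between the group means, 11.2% of the counts of a library changed hands. Between single libraries this share was 10.8% to 12.5% across groups, 3.16% to 3.56% within biochanin A and 3.29% to 5.75% within control. Of all genes, 5721 gained and 11410 lost in mean share, whether called or not. Shares sum to a constant, so gains in some genes must lower the shares of others. Under TMM the median log2 fold change was -0.02 over all tested genes. Only 49 genes carried 50% of the gain, while 1237 genes were needed for 50% of the loss. The 3 largest gains alone made up 24.4% of the total gained, and the 3 largest losses 1.20% of the total lost. Genes of 100 CPM and above took 80.8% of the gain and bore 46.3% of the loss, and genes from 20 to 100 CPM took 14.5% and bore 45.6%.

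**Figure D4:**
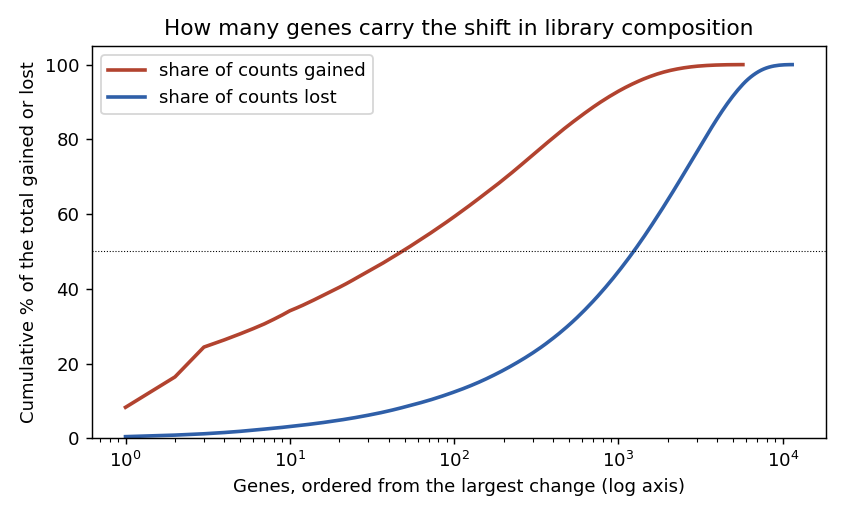
Cumulative share of all counts gained or lost between the group means (y axis, percent) by genes ordered from the largest change (x axis, log scale), from unscaled CPM. The gain (red) reaches 50% with 49 genes and the loss (blue) with 1237.

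The median under library totals moved towards 0 as the most abundant genes were left out of the totals. With the totals taken over all other genes, the median log2 ratio of the group means was -0.19 without the 2 most abundant control genes, -0.18 without the top 10, -0.14 without the top 100 and -0.08 without the top 1000, against -0.22 with none left out.

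The 2 genes that gained most CPM were the 2 most abundant transcripts of the control larvae, and they kept that place with biochanin A. AgB01_g233 stood at 21691, 21296 and 21726 CPM in control replicates 1, 2 and 3 and at 34563, 34428 and 34607 CPM with biochanin A. The groups did not overlap, and their gap was far wider than the range within either. It rose by 0.68 ± 0.06 on the log2 scale (SE), or 1.6-fold, with an adjusted p of 1.3e-07 by edgeR's quasi-likelihood test. AgB01_g234, which follows it in the numbering, stood at 15348, 15192 and 15550 CPM in control and at 27683, 27551 and 27437 CPM with biochanin A. It rose by 0.84 ± 0.06 on the log2 scale (1.79-fold, adjusted p = 4.2e-09 by the same edgeR test). In unscaled shares, AgB01_g233 went from 2.26% to 2.39% of a control library to 3.23% to 3.28% of a biochanin A library, and AgB01_g234 from 1.62% to 1.70% to 2.56% to 2.62%. They made up 8.13% and 8.28% of all counts gained. Whether the 2 genes are near-identical copies that could share reads is not known from the count table, nor do the labels say how such reads were counted. Next in gain was a gene at 3179, 3064 and 3232 CPM in control and 13175, 12719.9 and 13536 CPM with biochanin A, a 4.16-fold rise with an adjusted p of 1.2e-14 by edgeR and 7.98% of the counts gained.

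**Figure D5:**
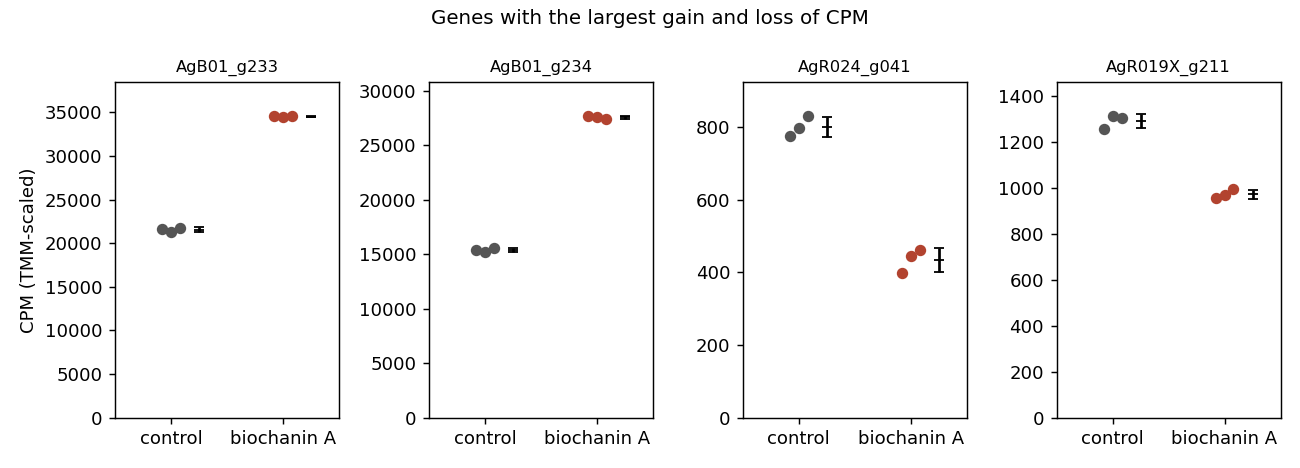
TMM-scaled CPM (y axis, from 0, a scale of its own in each panel) of the 2 genes with the largest gain and the 2 with the largest loss of mean CPM, in 3 control and 3 biochanin A libraries; points are libraries, and the bar beside them is the mean ± SD (n = 3). In each panel the groups do not overlap, for example 21296 to 21726 CPM against 34428 to 34607 CPM for AgB01_g233.

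The largest losses of CPM were far smaller. AgR024_g041 stood at 774.8, 796.8 and 830.6 CPM in control and 396.9, 446 and 460.7 CPM with biochanin A. It fell by 0.88 ± 0.07 on the log2 scale (SE), a 1.84-fold drop (adjusted p = 3.7e-09 by edgeR), and went from rank 75 to rank 318 in abundance. AgR019X_g211 stood at 1257, 1315 and 1304 CPM in control and 955.2, 970.6 and 994.7 CPM with biochanin A, without overlap. It fell by 0.41 ± 0.05 on the log2 scale (1.33-fold, adjusted p = 9.5e-06 by edgeR). Their losses were 0.41% and 0.432% of all counts lost. Against all tested genes, the size of the change on the log2 scale ranked at percentile 79.5 for AgB01_g233, 85.5 for AgB01_g234, 86.5 for AgR024_g041 and 61.5 for AgR019X_g211. In the extract libraries, at a dose that is not matched, the means were 27299 ± 753, 19377 ± 337, 622.1 ± 35.9 and 1046 ± 11.3 CPM in the same order (SD, n = 3).

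Genes that did not pass the test came from every abundance class but were rarer in the median. Their median control level was 10.1 CPM, against 48.3 CPM for genes called higher and 37.6 CPM for genes called lower. Among the 9515 genes not called, 668 had an estimated change over 2-fold, and their median control level was 0.454 CPM. For 258 of these 668 (38.6%) the groups did not overlap, against 46% of all tested genes and 17.7% of all genes not called. Picking genes by a large estimate favours groups that lie apart, so this share is a description only. No response of the genes not called was detected with 3 libraries per group, which does not show that they did not respond.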

How the data were processed

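RNA was extracted from whole larvae with TRIZOL and sequenced after a standard Illumina preparation, per the labels' protocols. The deposited values are raw read counts per gene, with no normalization by the authors; columns were matched to samples by library name, and 0 columns were left without a sample. Per the submitters' processing notes, DESeq2 is listed, with no role or version. The sheet name points to an annotation labelled WBPS19; neither labels nor table name an aligner, counting tool or strand setting, so overlapping, antisense or near-identical genes are uncertain.

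Genes with 10 or more counts in at least 3 of the 6 libraries were kept. Counts were TMM-scaled and tested with edgeR 4.0.16 (R 4.3.3; robust quasi-likelihood F test, 9 libraries, 3 groups, 6 residual degrees of freedom), with Benjamini-Hochberg adjustment over all 14857 genes and a threshold of 0.05. The standard error is the log2 fold change divided by the square root of F. The common coefficient of variation between libraries was 16.9%. Log2 CPM used a prior count of 2. Replicates of either group were distinct beyond counting error (chi-square over its degrees of freedom of 17.1 to 35.9 per pair), and none was merged. Named genes had the largest gain or loss of mean CPM among called genes without overlap. The workflow was tested on simulated data. The genes, classes and tests were chosen with earlier results of these data known. DESeq2 1.42.0 and limma 3.58.1 served as alternatives.

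Functional gene lists were planned by product name and were not run, since 0 identifiers have a name.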

Additional observations from a re-analysis of the deposited data

How the results depend on the processing

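Against 5342 calls (2561 higher, 2781 lower), DESeq2 gave 5649, limma voom 5413, no filter 5275, a model of the 6 libraries only 5151 and a replicate block 5332; library numbers did not pair the libraries (correlations of deviations -0.015, -0.005 and 0.005 for equal numbers). Scaling by library totals gave 1343 higher and 5188 lower. By construction, stricter rules left fewer: 1836 lower at an adjusted p below 0.01, 885 in all (516 higher, 369 lower) above a log2 fold change of 1, 703 (454 and 249) beyond 1.5-fold by glmTreat, and 476 over 2-fold among genes of at least 5 CPM. Chosen after seeing the data, glmTreat under library totals gave 623 lower beyond 1.5-fold, and 102 higher and 63 lower beyond 2-fold. Leaving out 1 library gave 4441 to 5557 calls, 2154 to 2683 higher, 2287 to 2874 lower and 838 to 916 over 2-fold. The direction and call of the 4 named genes held in all 17 alternatives each, with log2 fold changes of 0.47 to 0.69 for AgB01_g233, 0.64 to 0.86 for AgB01_g234, -1.09 to -0.82 for AgR024_g041 and -0.61 to -0.39 for AgR019X_g211. They were chosen as called and without overlap in these same libraries, which favours that outcome.

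The share of higher genes among calls, 83.4%, 58.4%, 42.9%, 36.6% and 66.9% from the lowest to the highest control class, was 72.7%, 34.2%, 20.6%, 13.5% and 27.5% under library totals. For the class from 20 to 100 CPM it was 39.4% with DESeq2 size factors and 39% with 6 libraries. With the class from a control library left out of the fold change, the share was 76% to 80% under 1 CPM and 55.1% to 65% from 1 to 5 CPM. It was 43.8% to 44.7% from 5 to 20 CPM and 66.7% to 72.1% at 100 CPM and above. From 20 to 100 CPM it was 38.8%, 38% and 39.5% with control replicates 1, 2 and 3. With the class from the mean of the 6 libraries it was 55.8%, 49.1% and 38.7% in the lowest 3 classes and 73.4% in the highest; with 5 classes of equal size, 48.3%, 37.1% and 61.5% in classes 2, 3 and 5, counted from the lowest. Leaving out 1 library gave 75% to 87.4%, 57.2% to 66.1%, 42.7% to 45.2%, 36.5% to 38.9% and 66.6% to 71.1%. The cause of these shifts was not tested. The share with equal direction in held-out pairs had a median of 95.54% and ran from 92.71% to 98.02%. Depth limits genes under 1 CPM most: with 44324212 to 53786882 counts in a library, no change under 2.29-fold was called.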
